A study of Mus musculus with 2 samples.

Results

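The cerebellins and a delta glutamate receptor were followed through the open chromatin of the mouse cerebellum. The members were 5 genes named for the purpose: the 4 cerebellin genes Cbln1, Cbln2, Cbln3 and Cbln4, and Grid1, which encodes the delta receptor GluD1. They are 5 of 21938 coding genes on chromosomes 1 to 19, X and Y. For each, all peaks and footprints that overlapped the gene body or the 50 kb on either side were taken, here called the gene's window. The rule used gene names and positions, but the genes were named with earlier results of these data known.

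DNase-seq cuts the DNA of nuclei with DNase I, so that open chromatin is cut often and shows as a peak, and a short stretch within it that is cut less than its surroundings shows as a footprint. The 2 libraries form 1 group: cerebellum from males of B6CASTF1/J, a first-generation cross of B6 with CAST, at an age of 8 to 10 months, with no treatment named. Each library is a biological replicate from a pool of 2 biosamples. Shared animals between the pools are neither stated nor denied in the labels, and part of the spread between replicates may thus be technical. There was no other tissue, age or treatment, and hence no comparison of conditions. Whole tissue was used, so a weak peak in many cells and a strong peak in few cells cannot be told apart.

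Cerebellins are secreted proteins of the C1q family. At the synapse between the parallel fibre of a granule cell and a Purkinje cell, Cbln1 from the granule cell bridges neurexin on the axon and a delta receptor on the dendrite, and so holds the contact together. Cbln3 is known as a granule cell cerebellin that is secreted in complexes with Cbln1, whereas Cbln2 and Cbln4 are known mainly from other brain regions, and Cbln4 also binds the netrin receptor Dcc.

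The Cbln1 and Cbln3 loci were open in both replicates, and the other 3 members had no peak at their start in the stricter peak list of either library. The longer list held weak peaks at the start of Cbln2 and, in replicate 1, of Grid1. Overlapping peaks of the replicates were joined into a region, so part of a region can lie in the peak of a single replicate. The sequences below are from the strongest regions with a peak in both replicates, outside annotated untranslated regions. They are printed 5′ to 3′ on the strand of the gene. The strongest and second strongest Cbln3 peaks lay mostly or wholly in untranslated regions and are not among them. Capitals mark the bases that lay in a footprint of both libraries. The first is the peak upstream of the Cbln1 start (chr8:87472775-87473074, minus strand, mm10), the second the peak in the Cbln1 intron (chr8:87470486-87470785, minus strand). The third is the peak between the Cbln3 and Khnyn starts (chr14:55884701-55884946, minus strand). The last are 2 weak peaks of Grid1, upstream of the gene (chr14:34810868-34810998, plus strand) and deep in an intron (chr14:35250501-35250680, plus strand).
Cbln1 upstream peak: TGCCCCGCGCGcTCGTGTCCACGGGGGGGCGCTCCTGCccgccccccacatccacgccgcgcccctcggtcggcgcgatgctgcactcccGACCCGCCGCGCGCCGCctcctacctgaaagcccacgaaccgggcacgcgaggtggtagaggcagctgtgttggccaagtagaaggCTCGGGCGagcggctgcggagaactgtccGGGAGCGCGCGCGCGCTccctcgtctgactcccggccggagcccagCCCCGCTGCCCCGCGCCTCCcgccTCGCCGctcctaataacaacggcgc
Cbln1 intron peak: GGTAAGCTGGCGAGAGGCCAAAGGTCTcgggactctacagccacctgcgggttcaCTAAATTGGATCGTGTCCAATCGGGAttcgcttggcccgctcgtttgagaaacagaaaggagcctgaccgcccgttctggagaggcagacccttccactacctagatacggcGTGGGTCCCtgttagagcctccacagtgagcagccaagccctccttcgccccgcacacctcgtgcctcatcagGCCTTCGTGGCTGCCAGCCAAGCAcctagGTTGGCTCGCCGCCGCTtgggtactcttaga
Cbln3 upstream peak: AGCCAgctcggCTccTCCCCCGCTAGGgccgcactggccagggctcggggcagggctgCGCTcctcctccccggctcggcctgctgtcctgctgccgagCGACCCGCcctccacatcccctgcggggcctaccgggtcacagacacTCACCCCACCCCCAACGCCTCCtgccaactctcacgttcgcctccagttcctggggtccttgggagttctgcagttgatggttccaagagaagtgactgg
Grid1 upstream peak: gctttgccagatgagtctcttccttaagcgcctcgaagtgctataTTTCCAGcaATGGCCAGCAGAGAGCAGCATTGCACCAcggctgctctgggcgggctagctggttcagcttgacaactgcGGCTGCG
Grid1 intron peak: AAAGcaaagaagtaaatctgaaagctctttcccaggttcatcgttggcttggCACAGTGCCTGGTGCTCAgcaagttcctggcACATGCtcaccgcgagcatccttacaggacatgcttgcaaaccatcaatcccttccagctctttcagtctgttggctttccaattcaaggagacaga

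Footprinted bases made up 105 of the 300 bases shown upstream of Cbln1 and 103 of the 300 in its intron. In the Cbln3 stretch they made up 53 of 246 bases. The 2 printed Grid1 peaks held 42 of 131 and 28 of 180 such bases, so these weak peaks also held footprints found in both libraries. The next strongest Grid1 region found in both, 110 kb into the gene and not printed, held 0 such bases. The search covered 18 short motifs without mismatch on both strands. In the Cbln1 upstream stretch it found CCGCCC, the GC-rich box of SP and KLF factors, at base 39 and the E-box CAGCTG at base 153. The first part of that stretch, with the CCGCCC at base 39, lay outside the peak of replicate 2. In the intron stretch CCGCCC was found at base 123. The Cbln3 stretch held CCGCCC at base 104, TTGGCA at base 169, and the ZIC motif CAGCAGG at bases 80 and 88. TTGGCA is a half-site of NFI factors and is here called the NFI motif. Grid1 had the E-box CAGATG at base 8 and CCGCCC at base 93 of its upstream peak, and TTGGCA at base 49 of its intron peak. A match describes the letters and not binding.

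A further set of short windows of 30 bases shows some of the motifs that overlapped footprints of both replicates at Cbln3 and Cbln1. They were chosen after their values were seen, and CCGCCC boxes are not among them. Here capitals mark the motif, and lower case the bases around it on the strand of the gene. The windows are the NFI motif just upstream of the Cbln3 start (chr14:55884386-55884415) and a pair of E-boxes in the Cbln3 3′ untranslated region (chr14:55882343-55882372 and chr14:55882584-55882613). A CTCF motif upstream of Cbln1 (chr8:87474268-87474297) is added.
Cbln3 NFI motif: tcactccatgctcTGCCAAggaggagggat
Cbln3 first E-box: aatcctgccgtcCATCTGtgccaggtccca
Cbln3 second E-box: aggctcccacaggggccCAGATGgaccagc
Cbln1 CTCF motif: aggttgacagtCCAGCAGTGGGCactgctc

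The authors deposited a stricter and a longer peak list per library, and the stricter was used unless the longer is named. It held 61776 peaks in replicate 1 and 71141 in replicate 2. Each peak carries the authors' signal, which counted up in equal steps of 0.00714 and 0.00632, so that the median peak of 1.40 and 0.961 stood at 196 and 152 steps. If a step is 1 cut, the counting error of the values below follows from the number of steps. The sources used here do not give the number of cuts per library. Signals ran higher in replicate 1, by a median of 0.41 (log2) over peaks in both replicates, with a range from the 5th to the 95th percentile of -0.51 to 1.06. The tissue label was set beside markers: all 6 granule cell genes (Neurod1, Zic1, Zic2, Pax6, Gabra6 and Barhl2) had a peak at a start in both replicates, with a summed signal of 35.2 and 30.6. Of 5 Purkinje cell genes 3 did (12.4 and 10.2), with none at Pcp2 or Car8. Of 4 genes of Bergmann glia and astrocytes 2 did, of 4 oligodendrocyte genes 1, and of 4 interneuron genes 1 in replicate 1 alone. None of 3 microglial, 3 vascular or 3 forebrain neuron genes had one.

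A gene was said to have a start peak where a peak overlapped the 1 kb on either side of an annotated transcript start, and its level was the signal of the strongest such peak. By this rule Cbln3 and Cbln1 had a start peak in both replicates, and Cbln2, Cbln4 and Grid1 in neither, which makes 2 of 5 members. Of all coding genes, 58.4% had a start peak in replicate 1, 57.2% in replicate 2 and 55.9% in both. In the longer list, the count was 4 of 5 members in replicate 1 and 3 of 5 in replicate 2, against 63.4% and 62.2% of coding genes. Bases with a false discovery rate (FDR) of the cut rate under 0.001 occurred within 1 kb of the start of Cbln1, Cbln3 and Cbln2 in replicate 1 and of Cbln1 and Cbln3 in replicate 2. That rule was met by 54.8% and 53.5% of coding genes.

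Cbln3 had the highest level of the 5. The signal of its start peak was 12.2 in replicate 1 against 9.99 in replicate 2, and averaged 11.1 ± 1.55 (SD, n = 2). Both replicates lay above every value of the other members. If a step is 1 cut, the counting error at 1708 and 1581 steps was 2.42% and 2.51%, well under the difference between the unscaled signals. That difference, 0.287 as a log2 ratio, was below the median of 0.41 over all peaks in both replicates. This mean was above that of 96.6% of coding genes, rank 743, and the median over genes with a start peak was 4.83 and 3.38. The peak (chr14:55884221-55884440) covered the first bases of the gene and its 5′ untranslated region, and a transcript start of Khnyn, the coding gene on the opposite strand, also lay within 1 kb of it. The peak can therefore not be given to Cbln3 alone.

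Cbln1 came next. The values at its start were 6.60 and 4.61, a mean of 5.61 ± 1.41 (SD, n = 2), and the lower replicate of Cbln3 exceeded the higher replicate of Cbln1. Cbln1 stood above 80.0% of coding genes, rank 4397, with a counting error of 3.29% and 3.70%. The 2 values lay above the respective median over genes with a start peak. The region of this peak, joined from both replicates, had its middle 0.312 kb upstream of the Cbln1 start, in an exon of Gm2694. Gm2694 is a long intergenic RNA gene on the opposite strand, whose span includes Cbln1 and which has a start within 1 kb of that middle. Here too the peak cannot be given to 1 gene.

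**Figure D1:**
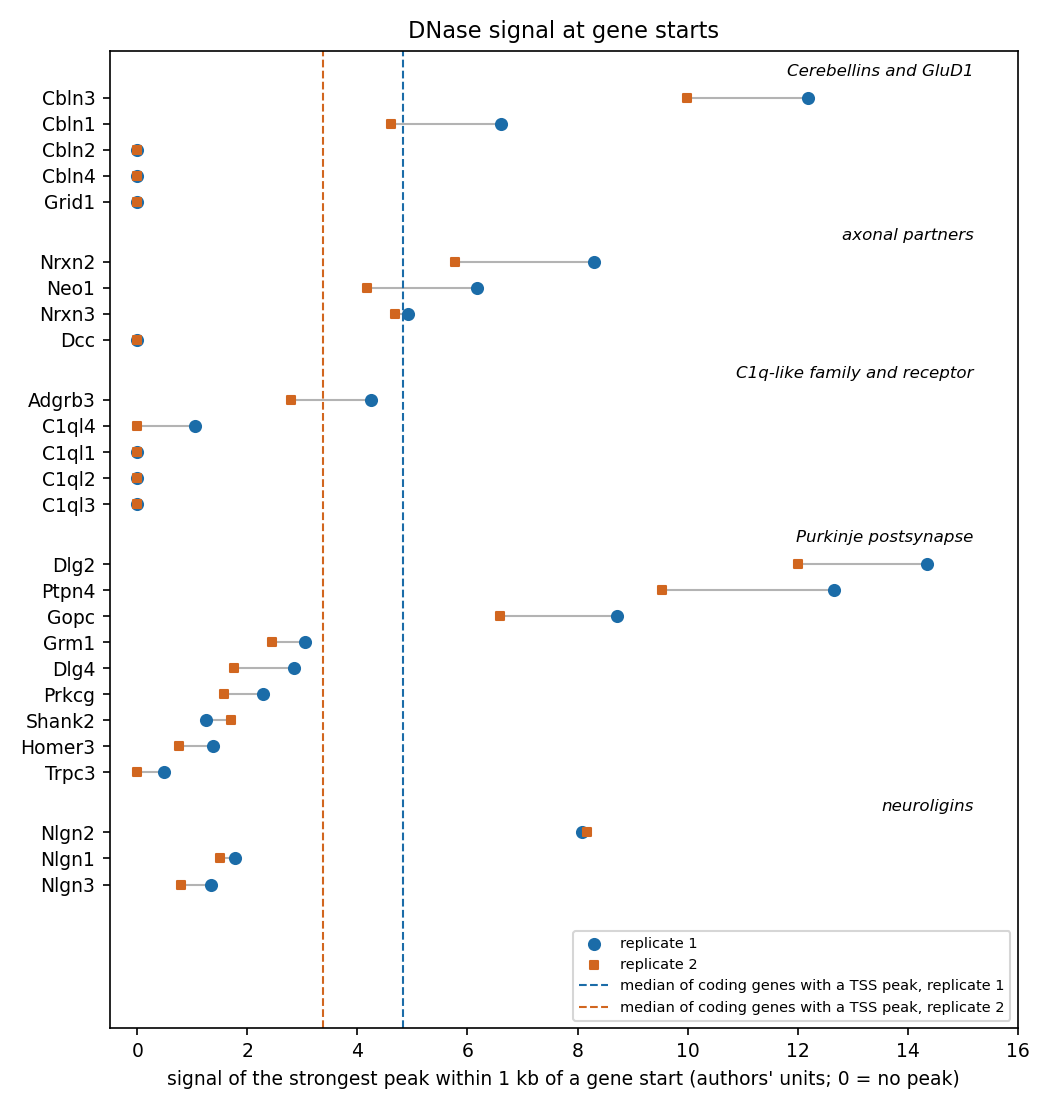
Signal of the strongest stricter peak within 1 kb of a start (horizontal axis, authors' units, 0 where there was none). Shown are the 5 members and 21 other listed genes, with a circle for replicate 1 and a square for replicate 2. Dashed lines give the median over coding genes with a start peak, 4.83 and 3.38. Cbln3 and Cbln1 lie to the right of the line of their replicate, and Cbln2, Cbln4 and Grid1 lie at 0.

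Cbln2, Cbln4 and Grid1 had traces at most. At Cbln2 the longer list held a single peak in its whole window in each replicate, centred 0.309 kb upstream of the start in replicate 1 and 0.320 kb in replicate 2, with signals of 0.400 and 0.190. The Cbln4 window held a single peak of the longer list in replicate 1, of signal 0.264 and 1.17 kb into the gene, and none in replicate 2. At the Grid1 start, the longer list gave 0.550 in replicate 1 and no peak in replicate 2. All of these lay below the median signal of a stricter peak. Openness at these starts was thus not detectable in the stricter lists, which is not the same as absent.

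The CpG content at the starts did not follow the order of the signal among the members. In the 1 kb centred on the start, the ratio of observed to expected CpG was 0.259 at Cbln3, lower than at any other member, 0.880 at Cbln1, 0.755 at Cbln2, 0.639 at Cbln4 and 0.894 at Grid1. Its median was 0.730 over coding genes with a start peak in both replicates and 0.214 over the others. Cbln3, with the strongest start peak, was thus closer to the genes without a start peak, above only 29.4% of coding genes. Grid1, without one, was above 90.9%. With 5 genes this is a description of these starts.

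The cut-rate FDR at the starts comes from the same libraries and is no independent check. Every stricter peak held a base with FDR under 0.001. The bases with FDR under 0.001 within 1 kb of the start numbered 2001 and 1486 at Cbln1, which is the whole stretch in replicate 1. Cbln3 had 1240 and 1939, so replicate 2 was here the higher one. Cbln2 had 20 and 0, and Cbln4 and Grid1 had 0 in both replicates. The median over coding genes was 268 and 202. Footprints in the same stretch numbered 27 and 19 at Cbln1, 15 and 17 at Cbln3, 4 and 0 at Cbln2, 5 and 0 at Grid1, and 0 in both at Cbln4.

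**Figure D2:**
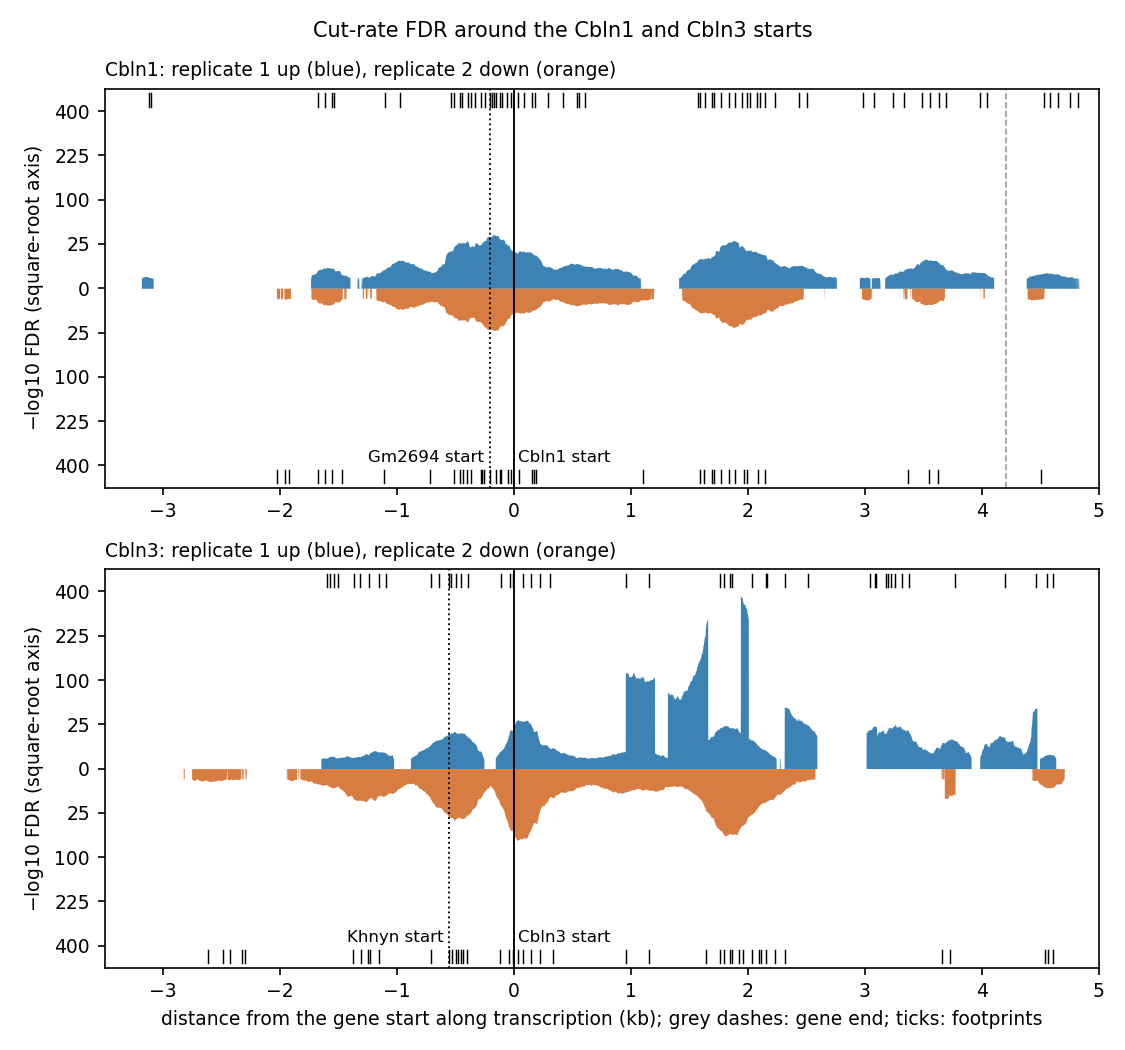
Deposited FDR of the cut rate as -log10 (vertical axis, square-root scale, replicate 1 upward in blue and replicate 2 downward in orange) against the distance from the Cbln1 and Cbln3 starts in kb, with ticks for footprints, a dotted line for the start of the gene on the opposite strand and a dashed grey line for the end of Cbln1. The highest value at Cbln1 lies 175 bp upstream in both replicates (37.4 and 22.9), whereas Cbln3 in replicate 1 shows blocks with upright edges up to 385.

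The FDR profile of Cbln1 had its highest point at the same base in both replicates, 175 bp upstream of the start, at a -log10 FDR of 37.4 and 22.9. Cbln3 differed between replicates in this measure. Replicate 2 rose to 65.4 at 26 bp into the gene. Replicate 1 reached 385 at 1936 bp into the gene, and fell by 369 from there to the neighbouring base, while the largest change between neighbouring bases was 3.01 at Cbln3 in replicate 2 and 1.78 at Cbln1 in replicate 1. The peak signal at that place was alike, 8.29 and 8.40. For this reason the height of the FDR was not compared between replicates or genes; the cause of the blocks was not tested.

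Around the starts, 3 of 5 members (Cbln1, Cbln3 and Grid1) had at least 1 peak in their window in each replicate, against 83.6% and 84.9% of coding genes. The longer list gave 5 of 5 members in replicate 1 and 4 of 5 in replicate 2, against 88.8% and 90.6%. Together the windows held 46 peaks in replicate 1 and 28 in replicate 2. Of these, 20 (43.5%) and 22 (78.6%) overlapped a peak of the other replicate by at least 1 bp, where the share over all peaks was 76% and 66.1%. In replicate 1 the share was thus below that of the library, and in the Cbln1 window it was 6 of 23 peaks.

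**Figure D3:**
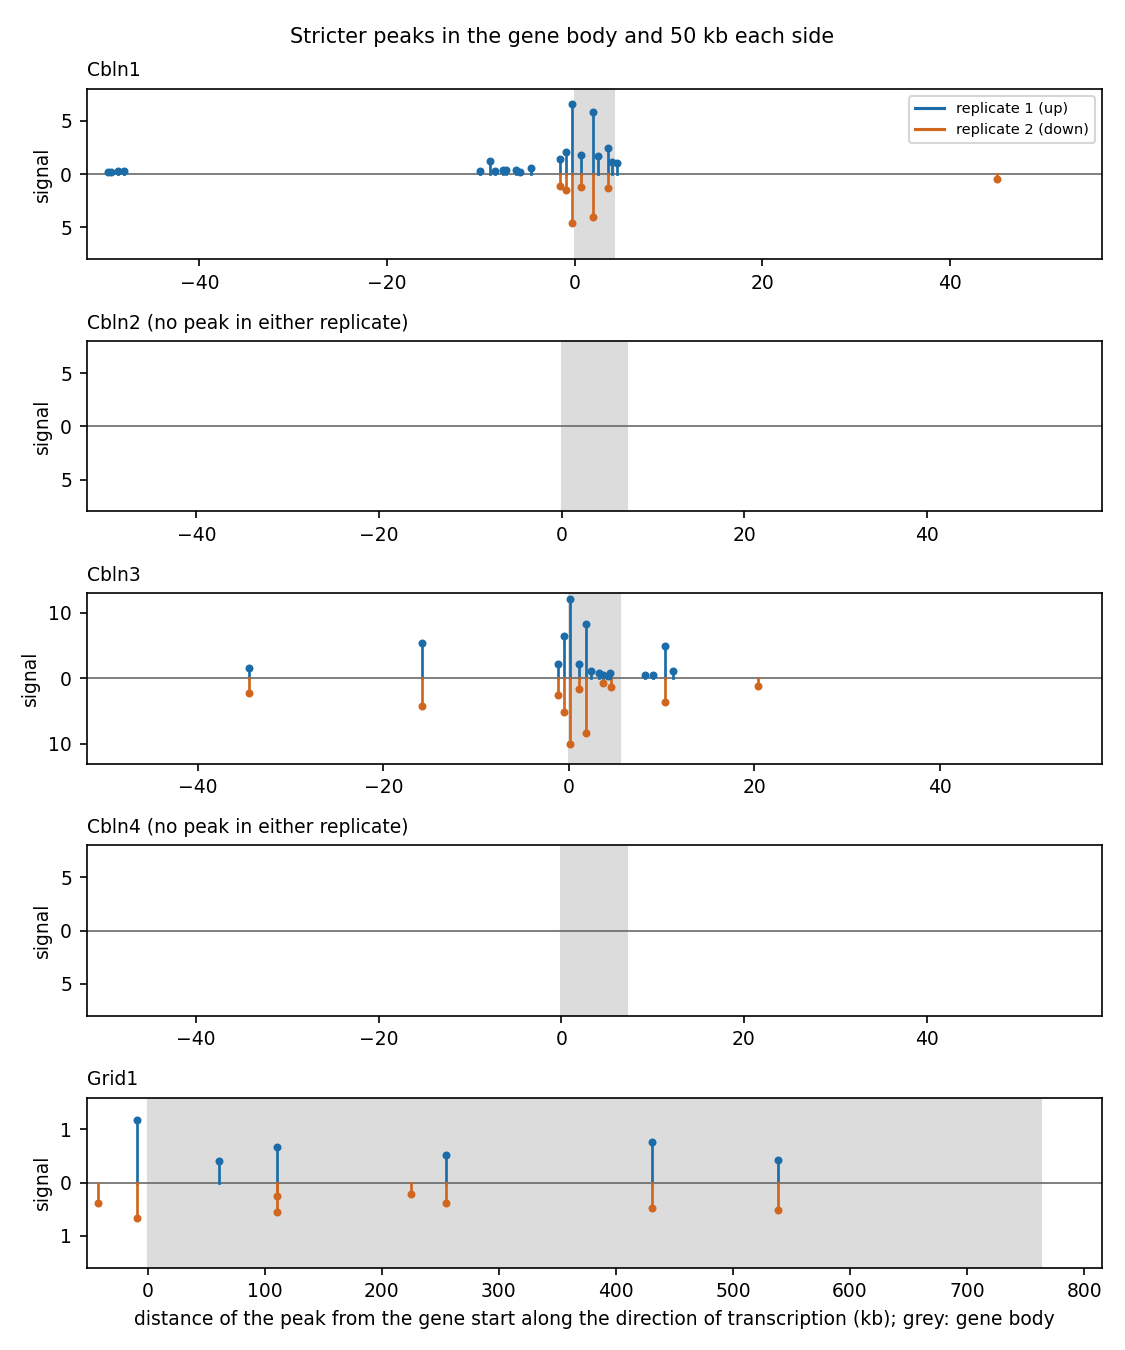
Signal of the strongest stricter peak of each region (vertical axis, authors' units, replicate 1 upward and replicate 2 downward), for the 5 windows. The horizontal axis is the distance of the middle of the region from the start of the gene in kb, with the gene body in grey. The axes differ between genes. Peaks cluster at the starts of Cbln1 and Cbln3 and reach 12.2 at Cbln3, the Cbln2 and Cbln4 windows are empty, and the peaks of Grid1 do not exceed 1.18.

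The Cbln3 gene (ENSMUSG00000040380.14, minus strand, chr14:55878913-55884392) sits among 4 other coding genes in its window, Khnyn, Nfatc4, Nynrin and Sdr39u1. The window held 17 and 12 peaks, or 16.1 and 11.4 per 100 kb, above 92.0% and 86.9% of coding genes. Peaks of both replicates fell into 18 regions, of which 9 were found in both. Second to the start peak was a region in the 3′ untranslated region of Cbln3 (chr14:55882361-55882720), with 8.29 in replicate 1 and 8.40 in replicate 2. Their SD was 0.0758 (n = 2), smaller than at the start. Signals were not scaled between libraries, so this does not show closer replicates. The log2 ratio of replicate 1 to replicate 2 was -0.0185 here and 0.287 at the start, beside a library median of 0.41. The second E-box (CAGATG) printed above lay inside this region and the peak of replicate 2, from 1796 to 1801 bp into the gene. It lay outside the peak of replicate 1, and 5 of its 6 bases were footprinted in both replicates. The first E-box lay directly beside the edge of the region, from 2032 to 2037 bp into the gene, with all 6 footprinted in both. The third region lay 0.499 kb upstream, on the side of the Khnyn start, with 6.52 and 5.13.

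The other regions found in both replicates at Cbln3 were weaker or lay at neighbours. Sdr39u1, 15.8 kb upstream, had a start peak of 5.47 and 4.24. A region 10.3 kb downstream of the start, in an untranslated region of Nynrin and an exon of the long intergenic RNA gene Gm26751, had 4.94 and 3.58. An intergenic region 34.5 kb upstream had 1.66 and 2.16, and was one of the places where replicate 2 was the higher. Of the 9 regions found in 1 replicate alone, 7 were of replicate 1 with signals up to 1.13 and 2 of replicate 2 with up to 1.36. The longer list of the other replicate held 2 of the 7 and 2 of the 2.

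The Cbln1 gene (ENSMUSG00000031654.16, minus strand, chr8:87468405-87472609) had no other coding gene in its window. Its window held 23 peaks in replicate 1 and 8 in replicate 2. As a density this was 22.1 and 7.68 per 100 kb, above 95.6% and 76.5% of coding genes, with a median over coding genes of 3.59 and 4.05. The 2 libraries thus disagreed on how dense this window was, and the gap depended on the setting. With 100 kb on each side the counts were 25 and 18, and in the longer list 28 and 14. In the gene body alone they were 5 and 4, and at or above the median signal 8 and 7. The strong peaks were common to both: all 6 regions found in both replicates lay between 1.59 kb upstream and 3.54 kb into the gene. After the upstream peak came the intron peak at 1.93 kb into the gene (chr8:87470481-87470880), with 5.80 and 4.05. The third was in the 3′ untranslated region, 3.54 kb into the gene, with 2.48 and 1.27. The remaining 3 had 2.10 and 1.50 at 0.922 kb upstream, 1.81 and 1.20 in the first part of the gene, and 1.41 and 1.14 at 1.59 kb upstream. The last of these regions held the CTCF motif printed above, in a footprint of the same bases in both replicates. That motif lay inside the peak of replicate 1 and outside the peak of replicate 2. Replicate 1 was the higher in all 6, by 0.30 to 0.96 (log2), around the median of 0.41 over all peaks in both replicates.

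The surplus of replicate 1 at Cbln1 was mostly of weak upstream peaks. Of 16 regions found in 1 replicate alone, 15 were of replicate 1, and 12 of these lay upstream within the span of Gm2694. These 12 fell into 2 groups, 4.70 to 10.1 kb and 48.0 to 49.7 kb from the start, the second near the window edge. Their signal ran from 0.193 to 1.28, all below the median peak of that library. The deposited FDR was under 0.05 over all 3173 bp of these regions in replicate 1 and over 5 bp in replicate 2. Replicate 1 had 17 footprints there and replicate 2 had 0, and the longer list of replicate 2 held a peak in 0 of the 12. Of the peaks of replicate 1 in all member windows, 23 of 46 had no peak in the longer list of the other replicate, against 15.5% over the library, and 16 of these 23 were at Cbln1. In replicate 2 it was 1 of 28, against 20.2%. At least 16 such peaks in a window were found at 399 coding genes in replicate 1, or 1.82%. The cause of this difference between the libraries was not tested. Without replicate 1 the Cbln1 window held 8 peaks and without replicate 2 it held 23.

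**Figure D4:**
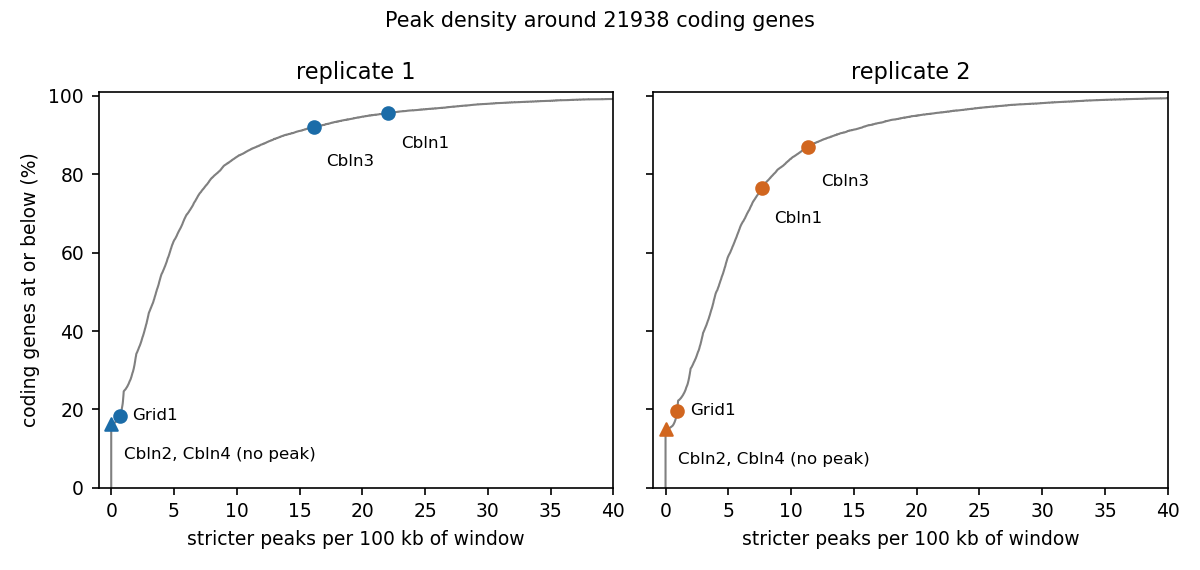
Share of 21938 coding genes (vertical axis, percent) whose window held at most the given number of stricter peaks per 100 kb (horizontal axis), for each replicate, with the members marked. Cbln3 lies high in both replicates (16.1 and 11.4 peaks per 100 kb), Cbln1 lies above Cbln3 in replicate 1 (22.1) and below it in replicate 2 (7.68), and Grid1 lies under 1 in both.

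The Cbln2 gene (ENSMUSG00000024647.14, plus strand, chr18:86711110-86718283) and the Cbln4 gene (ENSMUSG00000067578.3, minus strand, chr2:172036233-172043466) had no stricter peak over windows of 107 kb. Of the Cbln2 window 0.197% and 0.169% was listed with an FDR under 0.05. For Cbln4 it was 0.180% and 0.0494%, against 11.0% and 4.70% for Cbln1 and 10.9% and 9.76% for Cbln3. Cbln2 had 4 footprints in replicate 1 and 0 in replicate 2, and Cbln4 had 1 and 0, none of them found in both.

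Grid1 (ENSMUSG00000041078.7, plus strand, chr14:34820108-35583379), the receptor among the members, is by far the longest of them at 763 kb. Its peaks were few and weak for that length. The window held 6 peaks in replicate 1 and 8 in replicate 2, or 0.695 and 0.927 per 100 kb, above 18.4% and 19.6% of coding genes. No peak reached the median signal of its library. The strongest region found in both lay 9.18 kb upstream of the start and outside any gene (the Grid1 upstream peak printed above), with 1.18 and 0.664. Next came the printed intron peak 430 kb into the gene, with 0.757 and 0.474, and an intron region 110 kb into the gene, with 0.664 and 0.544. The other 2 regions found in both, at 255 and 539 kb into the gene, had 0.514 and 0.386, and 0.428 and 0.512.

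Unlike at Cbln1, the replicates were close in number at Grid1. Of its 9 regions, 5 were in both, 1 in replicate 1 alone and 3 in replicate 2 alone, and all 3 of the last were in the longer list of replicate 1. The deposited FDR was under 0.05 over 0.433% and 0.403% of the window. Footprints numbered 23 and 21, or 2.66 and 2.43 per 100 kb, where the median over coding genes was 19.4 and 19.2.

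At least 1 footprint was found in the windows of 5 of 5 members in replicate 1 and of 3 of 5 in replicate 2, against 85.7% and 85.5% of coding genes. The windows held 226 and 165 footprints in all, 102 and 95 at Cbln3 and 96 and 49 at Cbln1. Cbln1 and Cbln3 together thus held most of them. Of the footprints 52.2% and 48.5% lay in a stricter peak, against 64.1% and 66.7% over the libraries. A footprint of the other replicate overlapped 41.6% and 56.4%, against 51% and 50.6%.

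Motifs were searched in the 21 bp around the middle of each footprint. The SP and KLF box CCGCCC was found in 13 (5.75%) of the member footprints in replicate 1 and 12 (7.27%) in replicate 2, where the share over all footprints was 7.43% and 6.22%. The E-box CAGATG, of the kind bound by bHLH factors such as Neurod1, was found in 5 and 3, against 2.12% and 2.63% of all footprints. NFI motifs (TTGGCA) were found in 3 and 6, against 2.54% and 3.59%, and the ZIC motif CAGCAGG in 4 and 3, against 1.68% and 1.61%. The E-box CAGCTG was found in 5 and 0, against 1.59% and 1.47%, and the CTCF motif in 1 and 1, against 0.929% and 0.864%. In the 200 bp around the middle of each stricter peak, CCGCCC occurred in 24.8% and 19.8% and CAGATG in 19.5% and 22.2% of all peaks, so either motif in a peak is common.

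Motif matches anywhere in the windows were also set beside the bases footprinted in both replicates, each match counted once. At Cbln1, 7 matches had at least 1 such base, 6 of CCGCCC and 1 of the CTCF motif, and 5 had every base footprinted in both, 4 of CCGCCC and the CTCF motif. At Cbln3, 13 matches had at least 1 such base, 4 of CCGCCC, 3 of the E-box CAGATG, 2 of the NFI motif and 1 each of the E-box CAGCTG, the ZIC motif, the ETS motif CCGGAAG (in 0.510% and 0.499% of all footprints by the search above) and the CTCF motif. Every base was footprinted in both for 7 of these 13, namely 3 of CCGCCC and 1 each of the E-box CAGATG, the NFI motif, the E-box CAGCTG and the ZIC motif. Grid1 had 1 match, a TTGGCA with 2 of its 6 bases footprinted in both, and Cbln2 and Cbln4 had 0. The NFI motif printed above lay from 5 to 10 bp upstream of the Cbln3 start, with every base footprinted in both. These counts are of a few matches and were not tested against each other.

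A further list of 21 genes held partners and relatives of the members, postsynaptic genes and neuroligins. It was not limited to genes of the parallel fibre synapse. A start peak was found at 17 of the 21 in replicate 1 and 15 in replicate 2, with 15 in both, against 58.4% and 57.2% of coding genes. The median level over the list was 1.93, over all coding genes 1.29 and over the 5 members 0. Of the 4 axonal partners 3 had one in both replicates: Nrxn2 and Nrxn3, which encode neurexins, and the receptor gene Neo1, but not Dcc. Of the 9 genes of the Purkinje cell postsynapse all 9 had a start peak in replicate 1 and 8 in replicate 2. In whole tissue these peaks cannot be given to Purkinje cells, and they may lie at any annotated start of a gene. Dlg2, a scaffold of glutamate receptors, was the highest of the list with 14.3 and 12.0, followed by Ptpn4, a tyrosine phosphatase, with 12.7 and 9.54. The 3 neuroligins, which bind neurexins from the postsynaptic side, all had one in both, and Nlgn2 was the third highest of the list with 8.08 and 8.17.

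The C1q-like proteins, secreted relatives of the cerebellins, were the group with the fewest. Of 5 genes, counting their receptor Adgrb3, 2 had a start peak in replicate 1 and 1 in replicate 2, against 58.4% and 57.2% of coding genes. C1ql1 and C1ql2 had none in either replicate, and neither had C1ql3, which was named after its values were seen. Among the 8 secreted C1q-domain genes of both lists, Cbln1 and Cbln3 were the only ones with a start peak in both replicates by the stricter lists. Of all coding genes 55.9% had one in both. The Cbln1 and Cbln3 peaks also lay within 1 kb of a start of Gm2694 and Khnyn, respectively, so they cannot be given to the cerebellins alone.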

How the data were processed

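DNase-seq was measured in 2 cerebellum libraries, taken as replicates of 1 group and numbered as the labels number them. The members, the gene lists and the motifs were chosen with earlier results of these data known, so they give a description and no test. Genes with values were all members, and, of the other listed genes, the 3 with the highest level and the first 2 in the alphabet without a start peak. Some items are not reported here.

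Per the labels, positions are on the mm10 assembly. The authors called peaks, cut-rate FDR and footprints for each library separately, per the text deposited beside them. The sources used here name no aligner or caller and give no read numbers. The deposited peak signal is a coverage measure, never negative, of a scale not stated. In the deposited cut-rate tables the value is an FDR (q-value), listed under 0.05 only, and the deposited footprints all carry the constant 0.01. Peaks of the stricter list all (100%) held a base with FDR under 0.001, against 64.1% and 63.9% in the longer list.

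Peaks, footprints and intervals were joined by position to the GRCm38 sequence (RefSeq) and GENCODE mouse release 21 with Python 3.11.15 and numpy 2.4.6. Interval overlaps, the search for steps and the motif search were tested on simulated data. Signals under 100 steps lay within 0.05 of a whole step. Expected CpG was the product of the C and G counts over the length. CAST alleles were not resolved. Precision rests on 2 replicates, and counting errors cover counting alone. The alternatives were the longer list, a signal minimum, other windows, merged peaks, a reciprocal overlap, and leaving out each replicate.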

Additional observations from a re-analysis of the deposited data

How the results depend on the processing

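Under the settings tried (another start window, a signal minimum at the median, either replicate alone) the members with a start peak stayed at 2. The longer list gave a mean of 3.5. Peaks in the windows, 37 on average, came to 64.5 with the longer list, 17 at or above the median signal and 17 in the gene bodies alone, and ranged from 28 to 46 when either replicate was left out. The share of peaks found in both replicates, 61.0% ± 24.8 (SD, n = 2), was 88.2% at or above the median signal and 34.5% with a reciprocal overlap of 50%. Footprints, 195.5 on average, came to 99 inside stricter peaks and 71 in the gene bodies, and ranged from 165 to 226 when either replicate was left out. Of 90 values of single genes under these settings, 64 kept within the spread between replicates or within 1.5 times the count and 26 moved. Of these, 5 came from leaving out a replicate: the Cbln1 peaks, 15.5 on average and 8 without replicate 1, and the footprints of Cbln2 (4 and 0) and Cbln4 (1 and 0) in replicates 1 and 2. The other 21 came from the longer list, the signal minimum, the windows or the limit to footprints inside peaks. Part of the 64 could not move: with 2 replicates, leaving 1 out never shifts a start signal by more than the SD. Peak counts of 0 also stay at 0 where a setting only removes or merges peaks. The 64 are thus no measure of robustness. No paired analysis was possible because the 2 libraries form 1 group. At the starts of Cbln2, Cbln4 and Grid1 signals in the longer list were 0.550 or less, and the weak peaks upstream of Cbln1 rest on 1 library. Read numbers are not known, so the part of depth in this was not tested.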
